A study of Homo sapiens
Mus musculus with 5 samples.

Results

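Heat shock proteins and their co-chaperones were followed in tumors grown from a human cancer cell line in the brain or the lung of mice. The genes were chosen by symbol: the HSP70 family (HSPA followed by a number), the HSP90 family, the small heat shock proteins HSPB2 to HSPB9, the mitochondrial chaperonins HSPD1 and HSPE1, HSPH1, the numbered J proteins of the DNAJA, DNAJB and DNAJC classes, and BAG1 to BAG6. This gave 75 of the 25524 genes in the human table and 74 of the 24628 genes in the mouse table. Human genes were read as the cancer cells and mouse genes as the host tissue around and within the tumor. All tumors came from H2030-BrM3, a line derived from the human lung adenocarcinoma line H2030 and selected for growth in the brain, and all hosts were athymic nu/nu mice, whose missing thymus leaves them with few T cells. The brain group held 3 brain tumors (BrMet Rep 1 to 3) and the lung group 2 orthotopic lung tumors (LuOt Rep 1 and 2), seeded through the trachea according to the labels. For the route to the brain, the age of the mice and the sampling times, the sources used here give no value. The labels do not say whether replicates came from separate mice, and p-values therefore measure only how far these samples spread, which may be technical.

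Chaperones of the HSP70 family bind unfolded stretches of other proteins in a cycle driven by ATP. J proteins deliver clients and start ATP hydrolysis, while BAG and HSP110 proteins release the nucleotide and so end the cycle. HSP90 completes the folding of kinases and hormone receptors, separate sets serve the endoplasmic reticulum (ER) and mitochondria, and small heat shock proteins hold unfolded proteins without ATP. In neurons, J proteins with HSC70 also strip clathrin from vesicles and keep synaptic vesicle proteins folded. Cancer cells are known to depend on the cytosolic machinery.

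RNA was measured by sequencing, and the deposited values are RPKM, reads scaled by gene length and library depth. Values of a group are given below in the order of the replicate numbers. Recovered depths were 8419288, 6393890 and 2445904 human reads in the brain tumors, against 6541037 and 3733689 in the lung tumors. Mouse depths were 2710983, 4915553 and 8636094 reads in the brain tumors, against 231156 and 5295159 in the lung tumors. Lung tumor 1 therefore stood apart, with 96.6% human reads, the lowest mouse depth, and 11897 mouse genes listed at 0. The human share was 75.6%, 56.5% and 22.1% in the brain tumors and 41.4% in lung tumor 2. The test compared brain with lung on log2(RPKM + 1) with limma, among genes that reached an RPKM of 1 in 2 or more libraries, and genes with an adjusted p under 0.05 over the whole table were called. Fold changes are brain minus lung on that log2 scale, which understates changes of low genes. Host markers separated the groups. All 6 neuron, 4 astrocyte and 4 oligodendrocyte markers were called higher in brain tumors, and 5 of 6 lung epithelial markers were called lower. The lung tumors differed from each other in host markers. Lung epithelial markers summed to 976 RPKM in lung tumor 1 and 64702.5 RPKM in lung tumor 2. Endothelial markers summed to 79.9 and 973 RPKM, and heart and skeletal muscle markers to 769 and 437 RPKM, in that order. Of the human carcinoma markers, EPCAM, KRT8, KRT18 and MUC1 were present in all libraries with overlapping groups, and KRT19 was at or near 0 in each. The gene lengths implied by RPKM and reads were uneven, 605 bases for human HSP90AA1 and 2681 for HSP90AB1, so that levels are not compared between genes.

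In the human genes, which stand for the cancer cells, no tested chaperone differed between brain and lung tumors past the test. The inducible HSP70 genes HSPA1A and HSPA1B had no entry in the human table, so they were not tested. The filter left 62 of the 75 genes, and limma called 0 of them, where 0.00693% of all 14423 human genes tested were called. A voom fit of the recovered reads also called 0. At an unadjusted p under 0.05 there were 6 chaperone genes, 1 higher and 5 lower in brain tumors, against 6.16% and 4.36% of all genes tested. The median log2 fold change of the 62 genes was 0.04, beside 0.09 over all genes tested. Groups did not overlap for 7 chaperone genes with brain above lung and for 9 with brain below lung, where the shares over all genes were 17.4% and 12.3%. The plot of fold changes by role shows human points close to 0 beside a wider spread of mouse points.

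**Figure D1:**
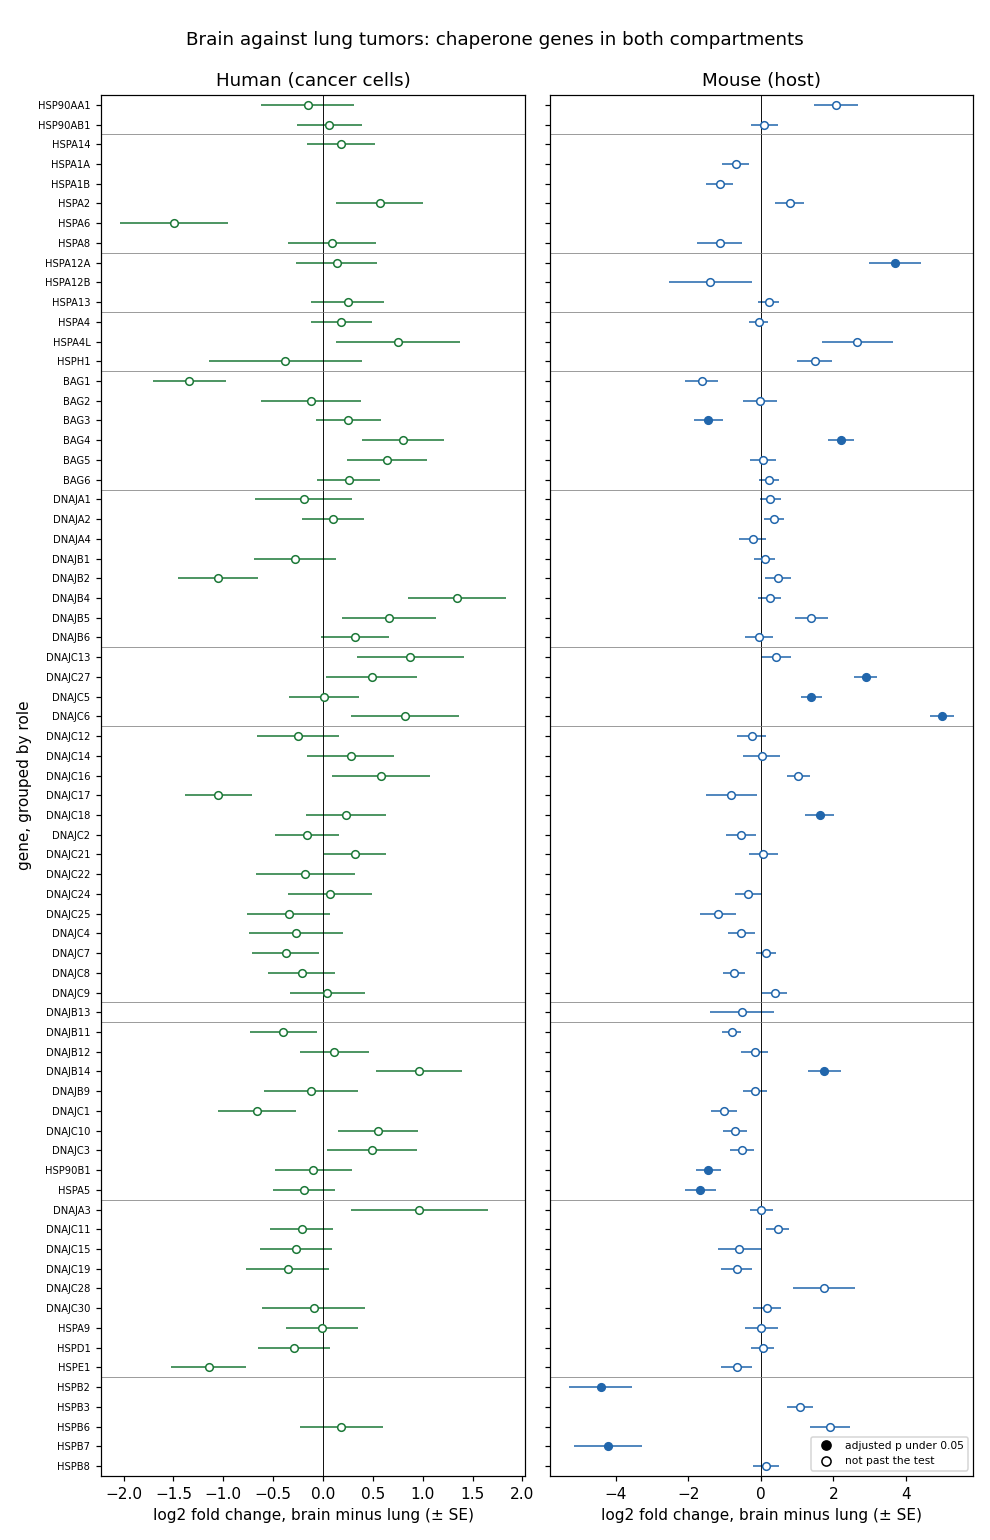
Log2 fold change, brain minus lung, with its standard error for each tested gene in human (left) and mouse (right), grouped by role; filled points have an adjusted p under 0.05 in limma, and the x axes of the panels differ. No human gene is filled, and 12 mouse genes are, from Hspb2 at -4.42 to Dnajc6 at 5.00.

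In the cancer cells HSP90AA1, HSP90AB1 and HSPA8 varied more between tumors of a group than between the groups. HSP90AA1, the stress-inducible HSP90 (chr14:102080742-102139749 in RefSeq GRCh38.p14), had 4820.3, 3237 and 3452 RPKM in the brain tumors, against 3156 and 5597 RPKM in the lung tumors. Brain tumor 1 and lung tumor 2 were high and the other tumors low, so that the groups overlapped (log2 fold change -0.15 ± 0.47 (SE), adjusted p = 0.915). HSPA8, the constitutive HSC70 that also uncoats clathrin vesicles, had 1822, 1322 and 911 RPKM in the brain tumors, against 949.8 and 1572 RPKM in the lung tumors, again with brain tumor 1 and lung tumor 2 on top (log2 fold change 0.09 ± 0.44 (SE), adjusted p = 0.95). HSP90AB1, the constitutive HSP90, varied less than both, with 568, 460.0 and 504 RPKM, against 434 and 545 RPKM (log2 fold change 0.06).

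The same tumors were high for HSPH1, DNAJA1 and DNAJB1, which work with HSC70. HSPH1, an HSP110 protein that releases nucleotide from HSP70, had 100.5, 52.9 and 16.1 RPKM in the brain tumors, against 31.0 and 107 RPKM in the lung tumors. Its brain tumors spanned a log2 difference of 2.57 between tumors 1 and 3 and its lung tumors one of -1.76 between tumors 1 and 2, so that the fold change between groups was -0.38 ± 0.77 (SE), adjusted p = 0.862. DNAJA1, a J protein of HSC70 in the cytosol, had 437, 261 and 151 RPKM in the brain tumors, against 222 and 394 RPKM in the lung tumors, and DNAJB1, the main inducible HSP40, had 241, 115 and 172 RPKM in the brain tumors, against 159 and 265 RPKM in the lung tumors. Groups overlapped for both (log2 fold changes -0.19 and -0.28). Co-chaperones outside the family, AHSA1, which activates the HSP90 ATPase, FKBP4 and PPID, which are immunophilins bound to HSP90, and CHORDC1, are among 7 of 13 tested human HSP90 co-chaperones with the same order, and were named after their values were seen. AHSA1 had 475, 279.8 and 194 RPKM in the brain tumors, against 377 and 547 RPKM in the lung tumors.

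Counted over the 16 tested human genes of the cytosolic HSP70, HSP90, HSP110, DNAJA and DNAJB groups, 14 had brain tumor 1 as the highest brain tumor and lung tumor 2 above lung tumor 1. This order held for 18.3% of all human genes tested; the pattern and the grouping were chosen after the values were seen and carry no test. The exceptions were HSPA2, a form enriched in testis, and DNAJB5. Of the corresponding 19 mouse genes, 3 showed that order, beside 23.4% of all mouse genes tested. Of the 6 human BAG exchange factors, which are outside this count, 1 showed it. The human share of reads was highest in brain tumor 1 among brain tumors but higher in lung tumor 1 than in lung tumor 2, and its part in the pattern was not tested.

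**Figure D2:**
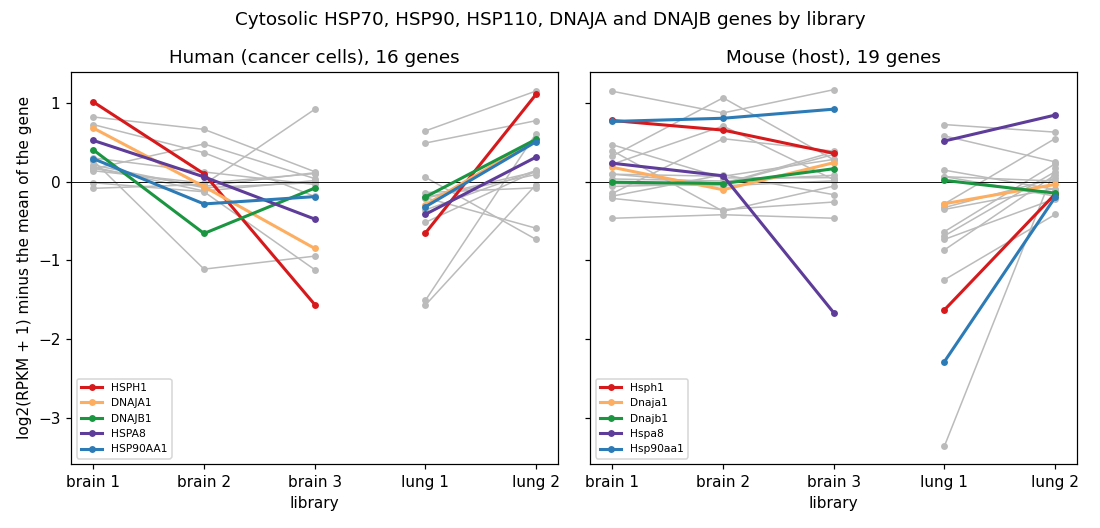
Log2(RPKM + 1) of each cytosolic HSP70, HSP90, HSP110, DNAJA and DNAJB gene minus its own mean over the 5 libraries, in human (left, 16 genes) and mouse (right, 19 genes); lines join tumors of a group, and 5 genes are coloured. Human HSPH1, DNAJA1, DNAJB1, HSPA8 and HSP90AA1 peak in brain tumor 1 and lung tumor 2, and the mouse lines do not share that order.

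The human genes with the lowest p values included co-chaperones that were lower in brain tumors and J proteins that were higher, none past the test. BAG1 (chr9:33252471-33264708), an HSP70 exchange factor that also binds BCL2, had 59.8, 45.3 and 55.1 RPKM in the brain tumors, against 183 and 101 RPKM in the lung tumors. Every brain tumor was below every lung tumor (log2 fold change -1.34 ± 0.37 (SE), adjusted p = 0.425). Without lung tumor 2 it was called, at -1.77 with an adjusted p of 0.0226, and without lung tumor 1 it was -0.91. DNAJC17 (chr15:40765161-40807473), a nuclear J protein linked to pre-mRNA splicing, had 44.3, 51.7 and 44.4 RPKM in the brain tumors, against 120.4 and 79.1 RPKM in the lung tumors, with no overlap either (log2 fold change -1.05 ± 0.34 (SE), adjusted p = 0.454).

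HSPE1, the HSP10 lid of the mitochondrial chaperonin, and HSPD1, its HSP60 barrel, lie head to head on chromosome 2, at chr2:197500379-197503449 and chr2:197486584-197500274 with 104 bases between them, and share a promoter region. HSPE1 had 78.8, 50.0 and 49.8 RPKM in the brain tumors, against 165 and 102 RPKM in the lung tumors, so that all brain tumors were below both lung tumors (log2 fold change -1.15 ± 0.37 (SE), adjusted p = 0.454). HSPD1 had 551, 417 and 384 RPKM in the brain tumors, against 439.6 and 673 RPKM in the lung tumors, with overlap (log2 fold change -0.29 ± 0.36 (SE), adjusted p = 0.761). The ratio of HSPD1 to HSPE1 values, which moves only between libraries since gene lengths are constant, was 6.99, 8.34 and 7.70 in the brain tumors, against 2.66 and 6.58 in the lung tumors. Lung tumor 1 alone was far below the rest. Of the other mitochondrial chaperones, HSPA9 (mortalin, the motor of protein import) had 1214, 1029 and 1187 RPKM, against 981 and 1339 RPKM, where the lung tumors were the lowest and the highest library (log2 fold change -0.01). All 8 tested mitochondrial genes were uncalled, 7 with a negative fold change and a median of -0.24, beside 0.09 over all human genes.

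DNAJB4 (chr1:77979175-78017964), a J protein close to DNAJB1, had 82.6, 74.0 and 50.6 RPKM in the brain tumors, against 14.9 and 45.03 RPKM in the lung tumors. It was the human chaperone with the lowest p among those higher in brain tumors (log2 fold change 1.34 ± 0.49 (SE), adjusted p = 0.47), and the groups did not overlap, although lung tumor 1 was far below lung tumor 2. DNAJB2, a J protein with ubiquitin-binding motifs known from neurons, had 127, 117 and 58.4 RPKM in the brain tumors, against 180.1 and 219.6 RPKM in the lung tumors, all brain tumors being lower (log2 fold change -1.05 ± 0.41 (SE), adjusted p = 0.47). HSPA6, a human HSP70 that is made almost only under stress, was low throughout and near its detection limit in brain tumors 2 and 3. It had 43, 3 and 2 reads in the brain tumors, against 48 and 43 reads in the lung tumors. Brain tumors 2 and 3 held almost no reads and brain tumor 1 a lower RPKM than either lung tumor (log2 fold change -1.50 ± 0.54 (SE), adjusted p = 0.469); HSPA6 and the near-identical HSPA7 can share reads, so that its level is uncertain.

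Leaving out lung tumor 2 raised the human calls to 6 of 62 genes, DNAJB4 and DNAJC13 higher and BAG1, DNAJC17, HSPE1 and DNAJC4 lower, in a fit that called 1905 human genes. That fit takes the spread of the lone lung tumor from the brain tumors. Leaving out lung tumor 1 gave 0 calls. DNAJC13, an endosomal J protein, had 85.9, 108 and 63.4 RPKM in the brain tumors, against 23.5 and 86.3 RPKM in the lung tumors; lung tumor 1 was the low value, while lung tumor 2 lay among the brain tumors.

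The 2 main ER chaperones of the cancer cells differed little between the groups. HSPA5 (BiP), the HSP70 of the ER, had 206, 157 and 195 RPKM in the brain tumors, against 215 and 208 RPKM in the lung tumors, so that the groups did not overlap, by a narrow margin (log2 fold change -0.19 ± 0.31 (SE), adjusted p = 0.823). HSP90B1 (GRP94), the HSP90 of the ER, had 1905, 1790.4 and 1432 RPKM in the brain tumors, against 2111 and 1563 RPKM in the lung tumors, with overlap (log2 fold change -0.10 ± 0.39 (SE), adjusted p = 0.935). Among the 9 ER genes none was called and the median log2 fold change was -0.10. DNAJB14, an ER membrane J protein, was highest in brain tumor 3, with 51.4, 59.1 and 94.0 RPKM, against 23.2 and 47.6 RPKM and no overlap (log2 fold change 0.96 ± 0.43 (SE), adjusted p = 0.479). DNAJC1, an ER J protein that binds ribosomes, went the other way with 27.8, 27.0 and 15.2 RPKM, against 36.6 and 35.9 RPKM (log2 fold change -0.66 ± 0.39 (SE), adjusted p = 0.537).

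The human J proteins grouped as vesicle and endocytic had positive fold changes in all 4 cases, with a median of 0.66, and none was called. Over all 14423 human genes tested, 8017 had a positive fold change. DNAJC13, DNAJC27 and DNAJC5 each turned negative in at least 1 alternative fit, down to -0.04, -0.19 and -0.22. DNAJC6 (auxilin), which recruits HSC70 to clathrin coats, had 11.97, 12.9 and 32.5 RPKM in the brain tumors, against 6.40 and 13.2 RPKM in the lung tumors, where brain tumor 3 was the high library (log2 fold change 0.83 ± 0.54 (SE), adjusted p = 0.564). DNAJC5, the cysteine string protein of synaptic vesicles, had 29.4, 25.9 and 28.2 RPKM, against 23.4 and 32.6 RPKM (log2 fold change 0.01). In the BAG family, BAG4, which restrains TNF receptor signalling, had 16.7, 16.8 and 16.5 RPKM, against 6.63 and 12.5 RPKM, and BAG5 had 49.6, 50.5 and 92.4 RPKM, against 32.1 and 47.2 RPKM; the groups overlapped for neither gene, and neither was called (log2 fold changes 0.80 and 0.64). BAG6, which guides tail-anchored proteins, and BAG3, a partner of HSPB8 in autophagy, overlapped between groups.

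HSPA1A, HSPA1B, HSPA1L, DNAJA4, HSPB2, HSPB3, HSPB7 and HSPB8 had no human entry under these symbols, although each had a mouse entry. Their level in the cancer cells is therefore not known here. Of the 75 human genes with an entry, 13 did not pass the filter. They were the 6 HSP90 pseudogenes HSP90AA5P, HSP90AA6P, HSP90AB3P, HSP90AB4P, HSP90B2P and HSP90B3P, the HSPA7 pseudogene, HSPA12B, HSPB9, DNAJC28 and the tissue-restricted DNAJB3, DNAJB7 and DNAJB13. Their highest value in any library was 1.11 RPKM, in HSP90AA6P. HSP90AA2P and HSP90AB2P passed but share sequence with expressed HSP90 genes, so that their reads are uncertain. HSPB6 was the only small heat shock protein tested in the human table, with 15, 11 and 5 reads in the brain tumors, against 7 and 7 in the lung tumors.

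Over all chaperone genes, the share of human reads was 1.38%, 1.10% and 1.07% in the brain tumors, against 1.06% and 1.40% in the lung tumors. The Wilson 95% intervals, which cover counting error only, were 1.37% to 1.39% for brain tumor 1 and 1.39% to 1.42% for lung tumor 2. Brain tumor 1 and lung tumor 2 thus stood above the other 3 libraries. In the mouse genes the share was 0.733%, 0.699% and 0.721% in the brain tumors, against 0.857% and 0.717% in the lung tumors, where lung tumor 1 was the highest library.

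In the mouse genes, which stand for the host, 12 of the 69 tested chaperone genes differed between brain and lung tumors, 7 higher and 5 lower in brain tumors. Over all 15431 mouse genes tested, 22.4% were called, 14.3% higher and 8.12% lower, so that the chaperones were called at a rate near the background. Higher were Dnajc6, Dnajc27, Dnajc5, Hspa12a, Bag4, Dnajc18 and Dnajb14, and lower were Hspa5, Hsp90b1, Bag3, Hspb2 and Hspb7. By role, 3 of 4 J proteins grouped as vesicle and endocytic were called higher. The ER chaperones gave 1 higher and 2 lower of 9, the BAG genes 1 higher and 1 lower of 6, and the small heat shock proteins 2 lower of 5. These groups were chosen with earlier results of these data known, and their counts carry no test. The median log2 fold change of the 69 genes was 0.05, beside 0.08 over all genes tested. Groups did not overlap with brain above lung for 20 genes, where 30% of all mouse genes did so, and with brain below lung for 18 genes, where 26.2% did. In bulk samples fewer cells of a type and less RNA per cell cannot be told apart. Dnajc6 and Dnajc27 were called in all 14 alternative fits; each of the other 10 calls was lost in at least 3 of them, and leaving out any single brain tumor left 2 calls. Fits without a lung tumor rest on 1 lung library whose spread is taken from the brain tumors, and they called 4591 mouse genes without lung tumor 1 and 8275 without lung tumor 2, against 3457 with both. The mouse contrast moved with the length implied by RPKM and reads, which need not be the true gene length. All tested mouse genes were split into 3 bins of implied length of about equal size. The median log2 fold change was -0.16 in the shortest, -0.01 in the middle and 0.39 in the longest. Over the chaperone genes it was 0.02, 0.07 and 0.02. Dnajc6, Dnajc18, Dnajc27 and Dnajb14 are among the genes of longer implied length, with 5238, 5280.4, 3906 and 3710.2 bases. The part of length in their values was not tested.

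**Figure D3:**
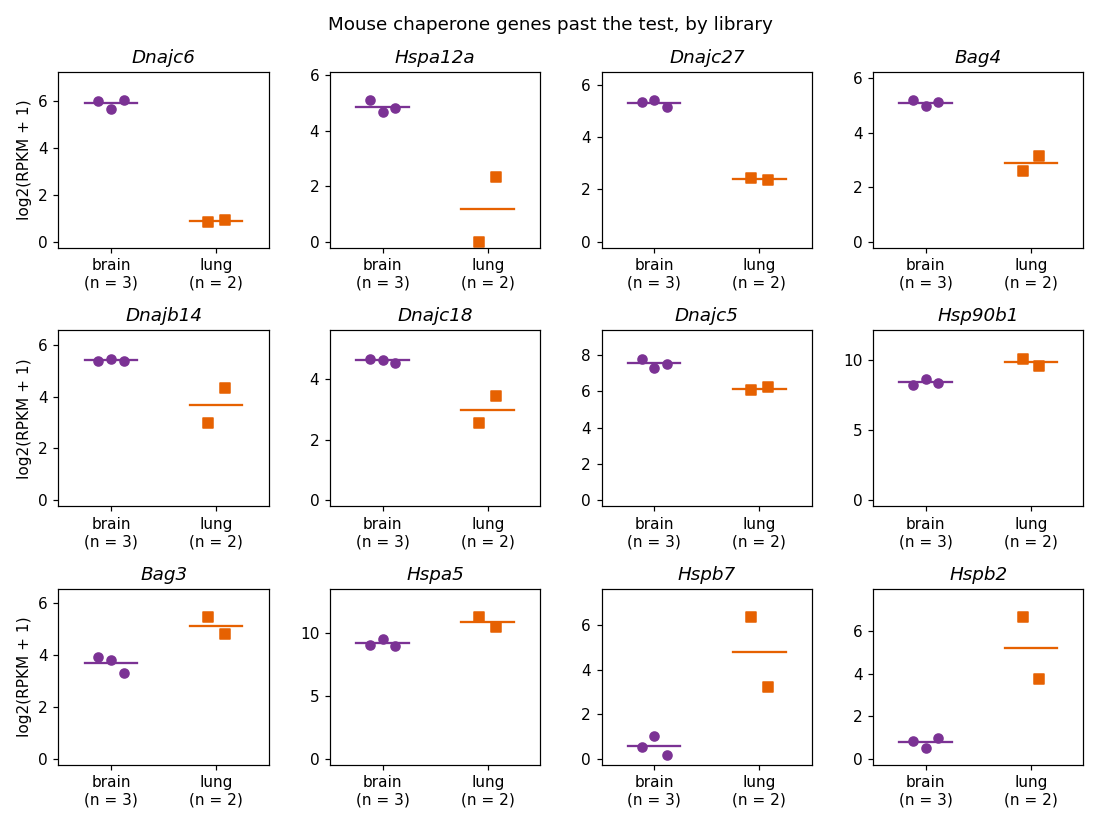
Log2(RPKM + 1) of the 12 mouse chaperone genes with an adjusted p under 0.05 in limma; circles are brain tumors (n = 3), squares lung tumors (n = 2), and lines group means. For Dnajc27 and Dnajc5 the lung tumors lie close together, although lung tumor 1 held only 4 and 36 reads of them. For Hspa12a, Hspb2 and Hspb7 they lie far apart.

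Dnajc6, auxilin, showed the widest difference. It had 50.2, 64.6 and 63.3 RPKM in the brain tumors, against 0.822 and 0.938 RPKM in the lung tumors, from 714, 1663 and 2862 reads in the brain tumors, against 1 and 26 reads in the lung tumors. Every brain tumor was far above both lung tumors, of which lung tumor 1 held a single read (log2 fold change 5.00 ± 0.34 (SE), adjusted p = 0.00115). The gene passed the filter through the brain tumors only, and leaving out lung tumor 1 moved the fold change only to 4.95. Dnajc27 is a Rab-like small GTPase with a J domain. It had 41.4, 34.3 and 39.8 RPKM in the brain tumors, against 4.41 and 4.21 RPKM in the lung tumors. Its log2 fold change in limma was 2.89 ± 0.32 (SE), adjusted p = 0.00324. The lung values rested on 4 and 87 reads, so that their near equality carries little weight. Dnajc5, the synaptic vesicle chaperone, had 156, 181 and 219.5 RPKM in the brain tumors, against 66.0 and 72.7 RPKM in the lung tumors, without overlap (log2 fold change 1.40 ± 0.29 (SE), adjusted p = 0.0232). Dnajc13, the endosomal member of this group, overlapped between groups with 159.5, 182 and 90.9 RPKM, against 82.3 and 130.0 RPKM and was not called.

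The other genes called higher were a divergent HSP70, an exchange factor and a pair of related membrane J proteins. Hspa12a, an atypical HSP70 abundant in brain, had 24.9, 27.1 and 33.5 RPKM in the brain tumors, against 0 and 4.06 RPKM in the lung tumors. The 0 in lung tumor 1 carries little weight, since 3 reads there would be 6.65 RPKM. Without lung tumor 1 the log2 fold change was 2.53 with an adjusted p of 0.00619, beside 3.70 ± 0.72 (SE), adjusted p = 0.0181 with it. Bag4, the exchange factor that binds TNF receptors, had 30.2, 33.7 and 35.3 RPKM in the brain tumors, against 5.05 and 7.89 RPKM in the lung tumors, with 3 reads in lung tumor 1 (log2 fold change 2.21 ± 0.35 (SE), adjusted p = 0.00947). Dnajb14, the ER membrane J protein, had 42.9, 40.8 and 40.4 RPKM in the brain tumors, against 6.96 and 19.0 RPKM in the lung tumors (log2 fold change 1.75 ± 0.46 (SE), adjusted p = 0.0437). It was 1.083 without lung tumor 1, which held 6 reads, and 2.41 without lung tumor 2, and its call held in 7 of 14 alternatives. Dnajc18, a relative of Dnajb14, had 24.3, 22.5 and 24.7 RPKM in the brain tumors, against 4.89 and 9.87 RPKM in the lung tumors (log2 fold change 1.63 ± 0.40 (SE), adjusted p = 0.0357). In each of these 4 genes all brain tumors were above both lung tumors, and the brain tumors lay close together.

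Markers of neurons, astrocytes and oligodendrocytes moved with these genes. The summed level of the 6 neuron markers was 1446, 1907 and 2354 RPKM in the brain tumors, against 32.1 and 35.9 RPKM in the lung tumors, and Rbfox3 was at 0 in lung tumor 1. The part of these cells in the chaperone values was not tested.

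Hsp90aa1 and 2 of the 3 HSP110 genes, Hsph1 and Hspa4l, had higher values in all brain tumors but missed the threshold. Hsp90aa1, the inducible HSP90, had 241, 248 and 268 RPKM in the brain tumors, against 28.1 and 123 RPKM in the lung tumors, with lung tumor 1 resting on 4 reads (log2 fold change 2.07 ± 0.61 (SE), adjusted p = 0.0608). It was called without lung tumor 1, at 1.03 with an adjusted p of 0.0216, and without lung tumor 2, at 3.12 with an adjusted p of 0.0012; over all 14 alternatives its adjusted p ran between 0.0012 and 0.19. Hsp90ab1, the constitutive form, had 1891, 1858 and 1954 RPKM in the brain tumors, against 1931 and 1626 RPKM in the lung tumors, which overlapped (log2 fold change 0.10 ± 0.38 (SE), adjusted p = 0.866). The ratio of Hsp90aa1 to Hsp90ab1 was 0.127, 0.133 and 0.137 in the brain tumors, against 0.0146 and 0.0755 in the lung tumors. In the human genes the same ratio was 8.49, 7.04 and 6.84 in the brain tumors, against 7.27 and 10.3 in the lung tumors; only its movement between libraries can be read, since the gene lengths differ.

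Hsph1 had 242, 222 and 181 RPKM in the brain tumors, against 44.8 and 126 RPKM in the lung tumors (log2 fold change 1.49 ± 0.48 (SE), adjusted p = 0.0765), and Hspa4l, an HSP110 relative, had 165, 136 and 167 RPKM in the brain tumors, against 6.29 and 83.4 RPKM in the lung tumors (log2 fold change 2.66 ± 0.98 (SE), adjusted p = 0.105). In both, lung tumor 1 rested on 8 reads or fewer and lung tumor 2 was nearer to the brain tumors. Hspa4, the third HSP110 gene, was nearly constant over all libraries, with 70.9, 69.5 and 72.6 RPKM, against 75.4 and 72.5 RPKM (log2 fold change -0.06). Among J proteins of the cytosol none of 8 was called; Dnajb5 had 18.2, 31.0 and 17.6 RPKM, against 5.45 and 10.5 RPKM (log2 fold change 1.39 ± 0.46 (SE), adjusted p = 0.0785), and Dnaja1, Dnaja2, Dnaja4, Dnajb1, Dnajb2, Dnajb4 and Dnajb6 had log2 fold changes between -0.22 and 0.47.

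Mouse Hspa8 was not called, with 162, 145 and 42.6 RPKM in the brain tumors, against 197 and 248 RPKM in the lung tumors and no overlap, brain tumor 3 being far below the other brain tumors (log2 fold change -1.13 ± 0.62 (SE), adjusted p = 0.236). Brain tumor 3 held 346 mouse reads of Hspa8 and 2291 human reads of HSPA8. This was a human share of 86.9%, beside a median of 24.1% over the chaperone genes compared between species. The part of read assignment in the Hspa8 values was not tested. The inducible HSP70 genes Hspa1a and Hspa1b are nearly identical in sequence, so that their reads cannot be assigned with certainty. Hspa1b had 1.41, 1.49 and 1.42 RPKM, against 4.51 and 4.16 RPKM and Hspa1a 1.21, 1.006 and 1.15 RPKM, against 2.84 and 2.06 RPKM, both lower in all brain tumors without passing the test (log2 fold changes -1.13 and -0.69); lung tumor 1 held 3 and 2 reads of them. Hspa12b, a divergent HSP70 of endothelium, followed lung tumor 2, with 10.6, 8.13 and 1.47 RPKM, against 4.20 and 52.9 RPKM (log2 fold change -1.39 ± 1.16 (SE), adjusted p = 0.417). The 4 endothelial markers summed to 88.1, 64.4 and 39.8 RPKM in the brain tumors, against 79.9 and 973 RPKM in the lung tumors, and their part was not tested.

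Both main ER chaperones of the host fell in brain tumors. Hspa5, the ER HSP70 that also senses unfolded protein, had 738, 509.5 and 543 RPKM in the brain tumors, against 2482 and 1409.7 RPKM in the lung tumors, and every brain tumor was below both lung tumors (log2 fold change -1.67 ± 0.42 (SE), adjusted p = 0.0391). Hsp90b1, its HSP90 partner, had 403, 331 and 305 RPKM in the brain tumors, against 1115 and 790.1 RPKM in the lung tumors, likewise without overlap (log2 fold change -1.45 ± 0.34 (SE), adjusted p = 0.0322). Of the 9 ER genes, 2 were called lower and 1, Dnajb14, higher, and 8 had a negative fold change with a median of -0.72, which ranged between -0.82 and -0.52 over the alternatives. Dnajb11, a J protein of BiP, had 36.8, 34.6 and 40.0 RPKM, against 64.7 and 66.3 RPKM (log2 fold change -0.81 ± 0.27 (SE), adjusted p = 0.0854), and Dnajc10, a J protein that reduces disulfides, had 178, 148 and 106 RPKM, against 226 and 237 RPKM (log2 fold change -0.72 ± 0.33 (SE), adjusted p = 0.172); both were lower in all brain tumors without passing the test. Dnajb9 and Dnajb12 overlapped between groups.

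A companion list of 16 other ER folding genes gave 6 called lower and 0 called higher, with a median of -1.46, beside 8.12% called lower, 14.3% called higher and a median of 0.08 over all mouse genes tested. The calls rested on few libraries: there were 3 under median-ratio scaling, 2 without a filter, 0 with the replicate block, 1, 0 and 0 without brain tumor 1, 2 or 3, 4 without lung tumor 1 and 10 without lung tumor 2. P4hb, a disulfide isomerase, had 345, 287 and 241 RPKM in the brain tumors, against 3498 and 968 RPKM in the lung tumors (log2 fold change -2.67 ± 0.59 (SE), adjusted p = 0.0272). Its log2 fold change was -1.75 without lung tumor 1 and -3.60 without lung tumor 2. Pdia6, of the same family, had 186, 127 and 77.3 RPKM in the brain tumors, against 874 and 479.8 RPKM in the lung tumors (log2 fold change -2.40 ± 0.49 (SE), adjusted p = 0.0208). Creld2, a secreted factor induced by ER stress, had 15.6, 11.7 and 5.98 RPKM in the brain tumors, against 64.9 and 45.5 RPKM in the lung tumors (log2 fold change -2.28 ± 0.47 (SE), adjusted p = 0.0219). In all 3 genes both lung tumors were above every brain tumor and lung tumor 1 was above lung tumor 2. Pdia3, Manf and Calr made up the rest. In the human table the list gave 0 of 15 called and a median of -0.31; P4HB had 1712, 1575 and 1192 RPKM in the brain tumors, against 1580.2 and 1692 RPKM in the lung tumors there.

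Reads of the 9 ER chaperones took 0.164%, 0.133% and 0.134% of mouse reads in the brain tumors, against 0.364% and 0.270% in the lung tumors. The human share was 0.273%, 0.242% and 0.242% in the brain tumors, against 0.273% and 0.256% in the lung tumors. Lung tumor 1 held 10059 human and 296 mouse reads of HSP90B1, and lung tumor 2 held 4277 human and 4782 mouse reads. The part of reads assigned to the wrong species was not tested. Without lung tumor 1 the log2 fold change was -1.26 for Hspa5, with an adjusted p of 0.0372, and -1.20 for Hsp90b1, with an adjusted p of 0.0268. With the human share of reads as a covariate both were still called. Quantile normalization lost the call of Hspa5, at -1.31. Neither was called under median-ratio scaling (log2 fold changes -1.51 and -1.29), with the replicate block (-1.61 and -1.36), without a filter, or when a brain tumor was left out. Lung epithelial markers summed to 92.3, 60.9 and 50.5 RPKM in the brain tumors, against 976 and 64702.5 RPKM in the lung tumors, and so were far higher in lung tumor 2 than in lung tumor 1. Hspa5 and Hsp90b1 were higher in lung tumor 1, and 6 of the 9 ER chaperones were higher in lung tumor 2. Over all 15431 mouse genes tested, 9183 were higher in lung tumor 2 than in lung tumor 1. The part of lung cells in the ER values was not tested.

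**Figure D4:**
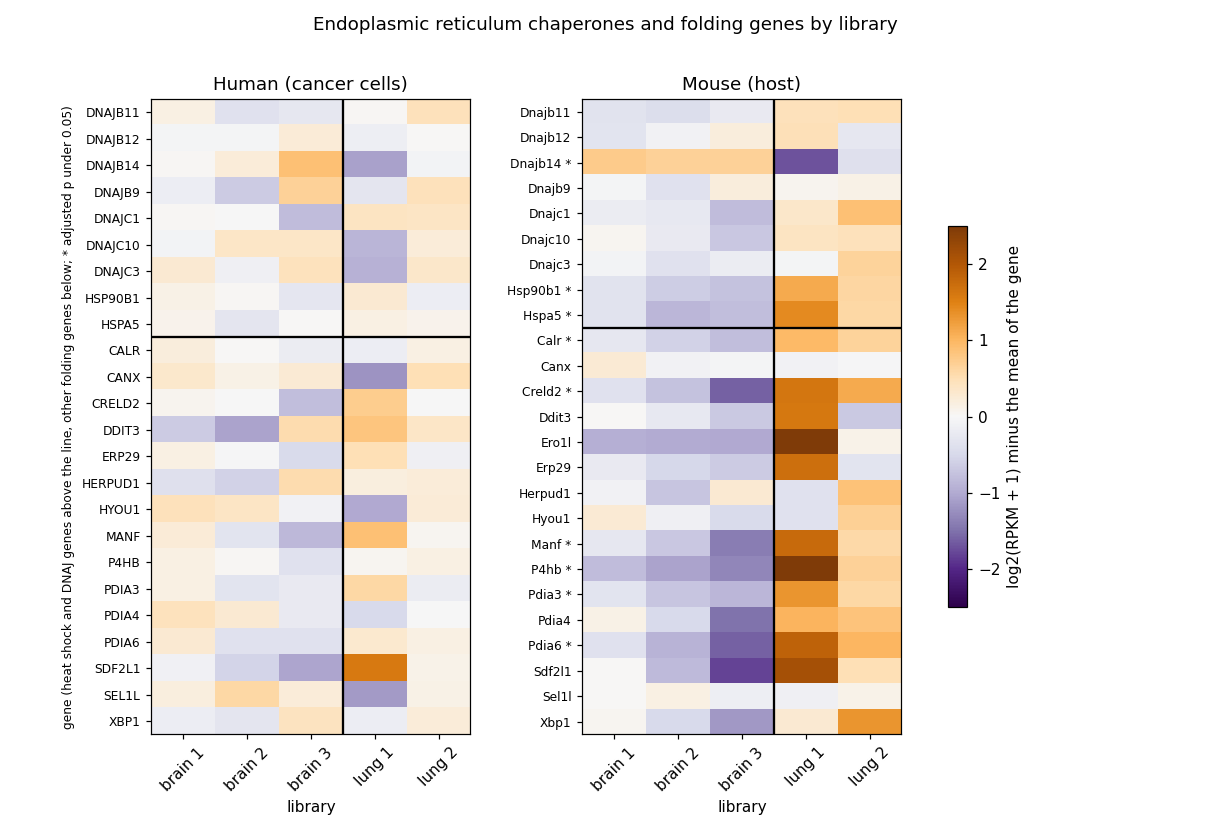
Log2(RPKM + 1) minus the mean of the gene over 5 libraries for ER heat shock and DNAJ genes (above the horizontal line) and other ER folding genes (below it), in human (left) and mouse (right); brain tumors are left of the vertical line, and asterisks mark an adjusted p under 0.05. In the mouse panel lung tumors are above brain tumors for Hspa5, Hsp90b1 and P4hb, and no human gene carries an asterisk.

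The small heat shock proteins split by gene. Hspb2, found mainly in heart and skeletal muscle, had 0.429, 0.948 and 0.810 RPKM in the brain tumors, against 100.4 and 12.3 RPKM in the lung tumors (log2 fold change -4.42 ± 0.87 (SE), adjusted p = 0.0188). It passed the filter through the lung tumors only. Hspb7, also of heart and skeletal muscle, had 1.04, 0.144 and 0.450 RPKM in the brain tumors, against 80.7 and 8.48 RPKM in the lung tumors (log2 fold change -4.21 ± 0.93 (SE), adjusted p = 0.027). Lung tumor 1 was the high library for both, with 20 and 53 reads, and lung tumor 2 was also above all brain tumors. Without lung tumor 1 the log2 fold changes were -2.96 and -2.66 and both were still called. Heart and skeletal muscle markers summed to 11.9, 13.1 and 8.41 RPKM in the brain tumors, against 769 and 437 RPKM in the lung tumors, with 1 of 6 called lower, but Myh6 was at 0 in lung tumor 1 and Myl2 in lung tumor 2. Smooth muscle markers summed to 22.8, 14.1 and 8.80 RPKM, against 1023 and 287 RPKM, with Des, Acta2 and Cnn1 called lower in brain tumors. The part of muscle cells in these values was not tested.

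Hspb6, a small heat shock protein first described in muscle, had the opposite order, 35.8, 22.4 and 19.5 RPKM in the brain tumors, against 3.17 and 10.6 RPKM in the lung tumors, with no overlap and 1 read in lung tumor 1 (log2 fold change 1.91 ± 0.56 (SE), adjusted p = 0.059). Hspb8, the partner of Bag3, overlapped, with 84.6, 67.5 and 59.7 RPKM, against 82.2 and 48.4 RPKM (log2 fold change 0.14). Hspb3, a small heat shock protein of muscle, had 3, 5 and 5 reads in the brain tumors and 0 in both lung tumors, where 3 reads would be 16.3 and 0.71 RPKM, so that no fold is given. Bag3, the exchange factor that works with Hspb8, had 13.1, 8.86 and 13.98 RPKM in the brain tumors, against 42.8 and 26.6 RPKM in the lung tumors, all brain tumors being lower (log2 fold change -1.45 ± 0.39 (SE), adjusted p = 0.049); it was called in 4 of 14 alternatives. Bag1 had 68.5, 62.9 and 63.1 RPKM in the brain tumors, against 328 and 125 RPKM in the lung tumors, again with every brain tumor lower, as in the human genes, and missed the threshold (log2 fold change -1.63 ± 0.45 (SE), adjusted p = 0.0516). It was called without lung tumor 1, at -0.93 with an adjusted p of 0.0289, and without lung tumor 2, at -2.32.

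The mitochondrial chaperones of the host did not differ past the test: 0 of 9 were called, with a median log2 fold change of 0.02 and 0 at an unadjusted p under 0.05, where 38.5% of all mouse genes were. Hspa9 had 317, 302 and 448 RPKM, against 515 and 233 RPKM, Hspd1 77.3, 53.3 and 60.4 RPKM, against 53.7 and 68.8 RPKM and Hspe1 11.2, 9.62 and 10.6 RPKM, against 24.3 and 12.1 RPKM. Lung tumor 1 was the highest library for Hspa9 and Hspe1. The ratio of Hspd1 to Hspe1 was 6.90, 5.54 and 5.72 in the brain tumors, against 2.22 and 5.67 in the lung tumors, so that lung tumor 1 was the low library, as in the human genes, from 11 and 5 reads. Among the other DNAJC genes Dnajc7 and Dnajc8, with roles in HSP90 transfer and in splicing, had log2 fold changes of 0.15 and -0.73, not called. Dnajb13, a radial spoke protein of motile cilia, had 1.40, 0.964 and 0.659 RPKM, against 0 and 6.99 RPKM. The 0 in lung tumor 1 carries little weight, since 3 reads there would be 12.3 RPKM. Lung tumor 2 had the highest listed value for Dnajb13 and the highest sum of ciliated cell markers. Those markers summed to 24.3, 18.1 and 15.7 RPKM in the brain tumors, against 1.61 and 75.3 RPKM in the lung tumors. Another 5 mouse genes, Hspa1l, Hspb9, Dnajb3, Dnajb7 and Dnajc22, did not pass the filter, and Hspa14 was listed under a pair of Ensembl entries that were kept apart.

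The genes around the family gave few differences outside the ER. Among mouse genes, 0 of 8 CCT chaperonin genes, 0 of 6 prefoldin genes, 0 of 14 HSP90 co-chaperones, 0 of 3 heat shock factors and 0 of 8 mitochondrial quality control genes were called by limma. Over all mouse genes tested, limma called 22.4%. At an unadjusted p under 0.05 there was 1 gene of these lists, the HSP90 co-chaperone Ptges3, beside 38.5% of all mouse genes tested. The voom fit called 0 genes of these lists. Cct5, a subunit of the chaperonin that folds actin and tubulin, had 202, 187 and 197 RPKM, against 655 and 208 RPKM, with lung tumor 1 far above the rest (log2 fold change -0.91 ± 0.52 (SE), adjusted p = 0.246). Hsf1, the main heat shock factor, had 16.8, 14.2 and 7.92 RPKM, against 10.4 and 26.0 RPKM in the mouse table and its human counterpart 242, 214 and 192 RPKM, against 292 and 283 RPKM; log2 fold changes were -0.39 and -0.42, and neither was called. In the human table limma called 0 genes of these lists, beside 0.00693% of all human genes tested. At an unadjusted p under 0.05 there were 2 HSP90 co-chaperones and 1 gene each of the heat shock factors, prefoldin and mitochondrial lists. Over all human genes tested, 6.16% were higher and 4.36% lower in brain tumors at that threshold. CCT5 had 1642, 1492 and 1778 RPKM, against 1668 and 1762 RPKM, and CDC37, which loads kinases onto HSP90, had 298, 286 and 232 RPKM, against 375 and 387 RPKM.

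Whether human and mouse genes differed in their brain to lung contrast was tested directly, within each library, as log2 of the human value minus log2 of the mouse value. Of 57 chaperone genes that had the same symbol in both tables, limma called 6, 1 with a positive and 5 with a negative difference, where 14.3% of 10189 genes were called, 6.55% positive and 7.72% negative. The negative ones were DNAJC6 (-4.17 ± 0.52 (SE), adjusted p = 0.00709), HSPA12A (-3.56 ± 0.52 (SE), adjusted p = 0.011), DNAJC27 (-2.40 ± 0.48 (SE), adjusted p = 0.0248), HSP90AA1 (-2.23 ± 0.52 (SE), adjusted p = 0.0369) and BAG4 (-1.41 ± 0.34 (SE), adjusted p = 0.041). For these genes the mouse fold change was the more positive, between 2.07 and 5.00, while the human one lay between -0.15 and 0.83. HSP90B1 was the positive one, at 1.35 ± 0.31 (SE), adjusted p = 0.0377, from a human fold change of -0.10 and a mouse one of -1.45. HSPA5 had a like difference that was not called (1.47 ± 0.43 (SE), adjusted p = 0.0689), and BAG1, lower in brain tumors in both tables, had a difference of 0.29 ± 0.37 (SE), adjusted p = 0.623.

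**Figure D5:**
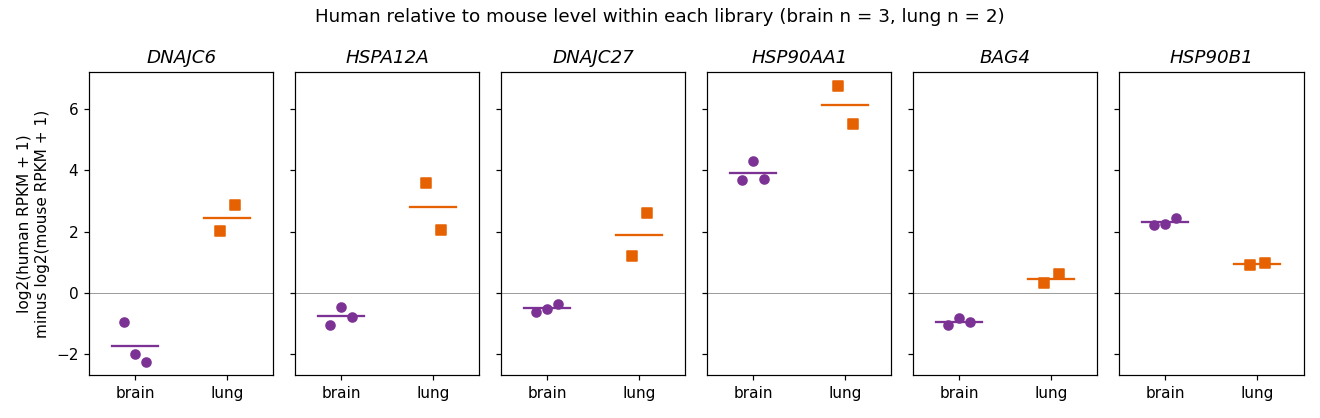
Log2(human RPKM + 1) minus log2(mouse RPKM + 1) in each library for the 6 genes called in the direct comparison; circles are brain tumors (n = 3), squares lung tumors (n = 2), and lines group means. Brain tumors lie below lung tumors for DNAJC6, HSPA12A, DNAJC27, HSP90AA1 and BAG4 and above them for HSP90B1.

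DNAJC6 was called in all 12 alternatives of the direct comparison, while HSP90B1 was called in 5 and lost its call under median-ratio scaling, where its difference was 1.04. The sources used here do not say how reads were assigned to a species. Over the 57 genes the median human share of a gene's reads followed the library. It was 79.1%, 59.6% and 24.1% in the brain tumors, against 96.3% and 47.2% in the lung tumors. Single genes lay far to both sides of the median, from 2.14% to 86.9% in brain tumor 3. HSPA8 was at 97.5%, 92.9% and 86.9% in the brain tumors, against 99.3% and 83.1% in the lung tumors. HSP90AA1 was at 98.4%, 94.4% and 78.2%, against 99.97% and 97.0%. The part of read assignment in these shares was not tested.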

How the data were processed

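RNA was sequenced from 5 tumors, 3 in brain and 2 in lung, grouped by their sample labels. The authors deposited RPKM per gene, human and mouse in separate tables, on the builds hg38 (GRCh38) and mm10 (GRCm38) per the submitters' processing notes. The aligner, the counter, the gene lengths and the assignment of reads to species were not given in the sources used here. In every library the values of all 25524 human and 24628 mouse genes were whole multiples of 1 read within 1e-06. This gave read counts and depths. As a check, the scale of brain tumor 2 alone was multiplied by a random factor in each table. Of the genes above 0 in more than 1 library, 9.22% of human and 13.1% of mouse genes were then still whole. For the 4393 human and 3995 mouse genes above 0 in 1 library only, being whole is weak evidence.

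Genes reaching 1 RPKM in 2 or more libraries were fitted with limma 3.58.1 in R 4.3.3 on log2(RPKM + 1), brain against lung, with a mean-variance trend and Benjamini-Hochberg adjustment within species. There were 3 residual degrees of freedom. Human and mouse contrasts were compared by fitting log2 human minus log2 mouse for 10189 genes of the same symbol. An exact permutation test of 3 against 2 libraries cannot give a two-sided p below 0.2, so none is used. Steps were tested on simulated data. In the limma simulation all genes had the same spread and the planted changes were large, so that it does not bear on smaller changes. Alternatives were pseudocounts of 0.1 and 0.5, no filter or a filter at 5 RPKM, median-ratio and quantile scaling, a replicate block, the human share as covariate, voom on the recovered reads, and leaving out each library. Genes are described by role; the members, gene lists, markers and tests were chosen with earlier results of these data known. Named genes were, in each species, the called members, the 2 members of each role with the highest mean RPKM and the 6 with the lowest p in each direction; of each companion list up to 3 called genes per direction, or otherwise the 2 with the highest mean RPKM; and the called members of the comparison between species. Other genes in the text were chosen after their values were seen. Human coordinates are from RefSeq GRCh38.p14. Intervals of read shares are Wilson 95% intervals.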

Additional observations from a re-analysis of the deposited data

Results flagged for a closer look

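For 6 of 57 tested chaperone genes the brain to lung contrast differed between human and mouse genes in the limma test of that difference. Over all 10189 genes in that test, 14.3% were called. The difference, human minus mouse on the log2 scale, was -4.17 for DNAJC6, -3.565 for HSPA12A, -2.405 for DNAJC27, -2.228 for HSP90AA1, -1.414 for BAG4 and 1.348 for HSP90B1. DNAJC6 kept its call in 12 of 12 alternatives, HSPA12A in 10, DNAJC27 in 8, BAG4 in 7, HSP90AA1 in 6 and HSP90B1 in 5. Mouse reads in lung tumor 1 numbered 0 for HSPA12A, 1 for DNAJC6, 3 for BAG4, 4 for DNAJC27 and 4 for HSP90AA1.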

How the results depend on the processing

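The 5 libraries, with 2 in the lung group, limit every comparison, and lung tumor 1 had few mouse reads, so that low mouse genes were not measurable there. The human table gave 1 call, which became 114 with the replicate block, 0 with the human share as covariate and 0 with voom; leaving out 1 library gave between 0 and 1905 calls, and between 0 and 6 of the chaperone genes. The mouse table gave 3457 calls, against 2295 without a filter and 1484 with the replicate block, and between 1195 and 8275 with 1 library left out. Of the mouse chaperone genes 12 were called, against 6 without a filter and 5 with the replicate block, and between 2 and 29 with 1 library left out. The comparison between species called 1454 genes, against 866 with a pseudocount of 0.1, 2186 without a filter and 763 with the replicate block, and between 297 and 3286 with 1 library left out. It called 6 chaperone genes, against 2 with a pseudocount of 0.1 and 2 with the replicate block, and between 1 and 15 with 1 library left out. Median-ratio scaling called 11 mouse chaperone genes higher and 2 lower, and voom 7 higher and 8 lower, beside 7 and 5; over all mouse genes 50.7% of voom calls were higher, beside 63.8%, and in the comparison between species 32.7% of calls were positive under median-ratio scaling, beside 45.9%. Scaling moved the median of all genes by -0.12 in the human table under median-ratio scaling, in the mouse table by 0.14 under it, -0.19 under quantile normalization and -0.23 under voom, and by -0.28 in the comparison between species under median-ratio scaling. No called gene changed sign in the alternatives run, while 22 of 43 uncalled named human genes and 11 of 28 uncalled named mouse genes did in at least 1. Nothing in the labels pairs the tumors by number: deviations of same-numbered tumors correlated at -0.082 and 0.059 in the human table and at 0.035 and 0.050 in the mouse table, and the replicate block uses 2 pairs and nothing from brain tumor 3.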

Other observations

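FKBP5, an HSP90-binding immunophilin induced by glucocorticoids, had 9.90, 20.6 and 47.0 RPKM in the brain tumors, against 3.20 and 1.41 RPKM in the lung tumors in the human table. Every brain tumor was above both lung tumors, but limma did not call it (log2 fold change 2.82 ± 0.64 (SE), adjusted p = 0.337). Mouse Fkbp5 had 71.4, 93.0 and 53.9 RPKM in the brain tumors, against 156 and 11.2 RPKM in the lung tumors, where the lung tumors were the highest and the lowest library (log2 fold change 0.72 ± 1.03 (SE), adjusted p = 0.645). HSF4, a heat shock factor known from the lens, had 42.6, 61.2 and 49.0 RPKM in the brain tumors, against 124 and 105 RPKM in the lung tumors, lower in every brain tumor and not called (log2 fold change -1.16 ± 0.33 (SE), adjusted p = 0.429). SDF2L1, an ER partner of BiP, had 61.9, 45.5 and 32.2 RPKM in the brain tumors, against 205 and 72.1 RPKM in the lung tumors in the human table, and mouse Sdf2l1 had 22.8, 12.4 and 5.83 RPKM in the brain tumors, against 103 and 32.5 RPKM in the lung tumors. In both tables every brain tumor was lower than both lung tumors, without a call (log2 fold changes -1.42 and -2.19). These genes were chosen after their values were seen.

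The difference between the lung tumors varied with the gene length implied by the deposited values in both tables. Over all tested human genes the median log2 ratio of lung tumor 1 to lung tumor 2 was -0.14 in the shortest genes, -0.17 in those of middle length and -0.53 in the longest, in bins of about equal size. In the chaperone genes it was -0.45, -0.43 and -0.51 in their own bins, in the same order. Over all tested mouse genes it was 0, -0.22 and -0.61, and in the mouse chaperone genes 0.25, -0.24 and -0.09. The part of gene length or RNA quality in these values was not tested.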
